A study of Mus musculus with 6 samples.

Results

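The genes described here are 10 components of dopamine and cAMP signalling in striatal neurons, namely Drd1, Drd2, Drd3, Adora2a, Gnal, Adcy5, Pde10a, Pde1b, Ppp1r1b and Rgs9. They were chosen by name, and every entry of the per-library event lists that carries the gene identifier of one of them was taken. This gave 50 distinct events of 10 genes, out of 132823 events of 16154 genes. RNA of the nucleus accumbens (NAc), the ventral part of the striatum, was sequenced from adult male C57BL/6N mice without a transgene or engineered allele after conditioned place preference, a procedure in which injections are paired with a compartment. The morphine group (3 libraries) was labelled Morphine injection and, per the methods, received intraperitoneal morphine in sessions that alternated with saline, and the saline group (3 libraries) was labelled Saline injection. Both groups were handled, tested in the apparatus and killed shortly after the preference test. The labels do not say whether a library is one animal or a pool, so the p-values measure only the spread between libraries. The comparison asked whether transcript structures of these genes differed in the NAc between the morphine and saline groups.

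Dopamine acts on striatal projection neurons through G protein coupled receptors that raise or lower cAMP, the second messenger that activates protein kinase A. D1 receptors raise cAMP through the G protein subunit encoded by Gnal and the cyclase encoded by Adcy5, D2 receptors lower it, and A2a adenosine receptors raise it in the neurons that carry D2. Phosphodiesterases break cAMP down, DARPP-32 relays kinase A activity to a phosphatase, and RGS9 shortens the signal of receptors that couple to inhibitory G proteins.

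Each list names structures in the transcripts assembled from one library. The events fall into transcript starts (first exons), transcript ends (last exons), skipped exons, retained introns and alternative exon ends. An event that is listed was assembled in that library, and one that is not listed may still be present in the tissue. The lists hold no expression level, so that neither fewer cells of a type nor less RNA per cell can be seen in them or told apart. Coordinates are on GRCm38, and annotated transcripts are those of GENCODE M21.

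The sequences below are the coding bases that 2 of these events decide. The first pair is the cassette exon of Drd2, which separates the long from the short D2 receptor. In the included form the 87 bases of the exon (chr9:49403194-49403280, plus strand, exon 6 of the 8 exons of the main annotated transcript) are in capitals, between 30 bases of each neighbouring exon in lower case. In the skipped form these neighbours are joined.
Drd2 exon included: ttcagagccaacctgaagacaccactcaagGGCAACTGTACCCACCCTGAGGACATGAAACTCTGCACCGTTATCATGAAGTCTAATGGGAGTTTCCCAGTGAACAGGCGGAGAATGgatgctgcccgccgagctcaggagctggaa
Drd2 exon skipped: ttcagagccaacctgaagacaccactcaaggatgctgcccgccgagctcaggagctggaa
All 87 bases of the exon are coding and make 29 codons, so that both forms keep the reading frame.

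The second pair is the branch of Rgs9 at which the short and the long protein part (chr11, minus strand). The last 30 bases of the shared exon are in lower case and the coding bases that follow in each form are in capitals. The long form splices to a further exon, of which the first 60 bases are shown, whereas the short form reads on to its own stop within the last exon at chr11:109235057-109236017.
Rgs9 long end: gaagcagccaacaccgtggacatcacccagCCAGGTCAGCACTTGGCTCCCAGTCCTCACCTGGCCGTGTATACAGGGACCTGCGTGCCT
Rgs9 short end: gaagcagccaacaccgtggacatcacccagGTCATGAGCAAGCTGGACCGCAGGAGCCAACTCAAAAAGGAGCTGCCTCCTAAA
After the shared exon the long form has 627 coding bases (209 codons) and the short form 54 (18 codons). The long protein, with 675 codons in all, is the form known from striatum, and the short protein, with 484 codons, is the form known from retina.

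All 10 genes were listed in all 6 libraries, as were 13183 of the 16154 listed genes. They had 33, 33 and 34 events in saline libraries 1 to 3 and 33, 31 and 29 in morphine libraries 1 to 3. The means were 33.3 ± 0.577 and 31 ± 2 (SD, n = 3 each), and the difference of -2.33 did not exceed the spread between libraries (two-sided exact permutation test, p = 0.3, where 0.1 is the smallest p that 3 against 3 libraries allow). No event of the 10 genes was present in all 3 libraries of one group and absent from all 3 of the other. Over all genes 0.658% of events met this description (368 in saline and 506 in morphine), so that a count of 0 among 50 events lies near the background. The number of events did not separate the groups in any of the 10 genes, against 2.77% of all listed genes.

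**Figure D1:**
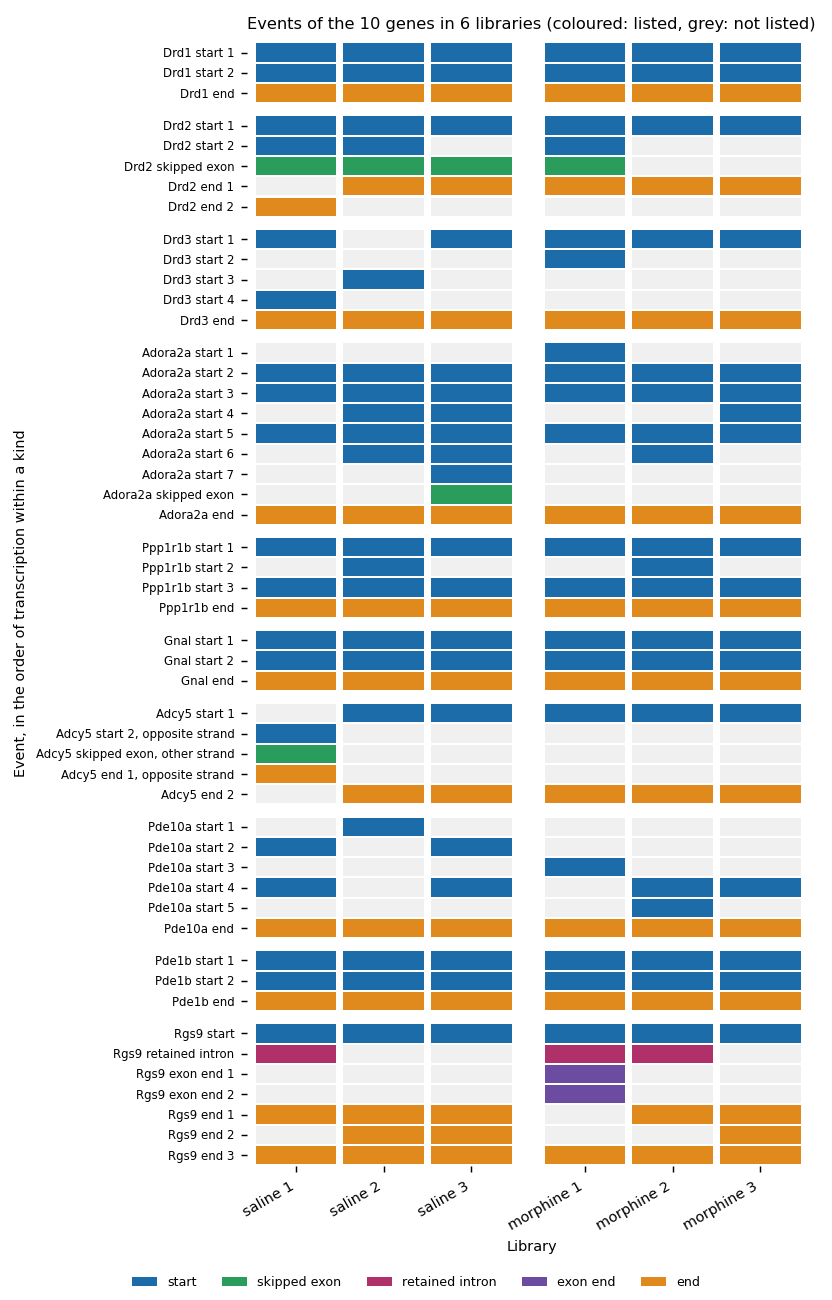
Each row is 1 of the 50 events of the 10 genes and each column a library, with colour by kind of event where it was listed and grey where it was not. The rows filled across all 6 columns are the 21 events shared by every library, and no row is filled in 1 group and empty in the other.

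Relative to the number of events in the whole list, the 10 genes took a smaller share in the morphine group. They had 0.567, 0.604 and 0.595 of every 1000 events in the saline libraries and 0.530, 0.513 and 0.510 in the morphine libraries. The groups did not overlap, and the means of 0.589 ± 0.0192 and 0.518 ± 0.0112 (SD, n = 3 each) differed at p = 0.1, the smallest p of the exact permutation test. How often other sets of genes separate on this ratio was not tested. The lists themselves held 58195, 54660 and 57118 events in saline and 62209, 60466 and 56882 in morphine, and the relative depth of the libraries was 1, 1.07 and 1.37 in saline and 1.198, 1.59 and 1.29 in morphine. Divided by relative depth and scaled to its mean, the number of events of the 10 genes differed by -8.05 between the groups (p = 0.2, exact permutation test), compared with -2.33 without scaling. Such division assumes that events rise in proportion to depth. The whole lists did not, with 58195 events at a depth of 1 and 57118 at 1.37.

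**Figure D2:**
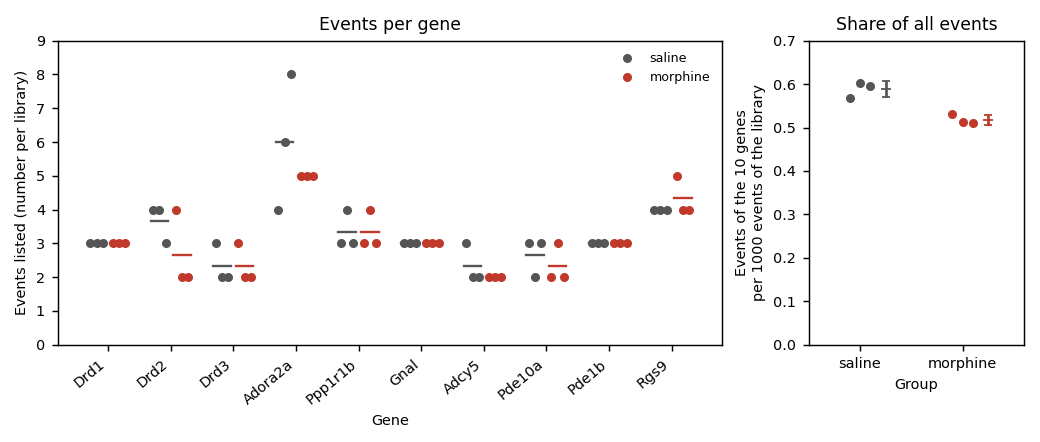
In the left panel each point is a library, the vertical axis is its number of listed events, and short lines are group means. In the right panel the vertical axis is events of the 10 genes per 1000 events of the library, with mean and SD beside the points. Groups overlap for every gene on the left, while on the right saline lies between 0.567 and 0.604 and morphine between 0.510 and 0.530.

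By kind of event, transcript starts and ends made up most of the set, and there were few internal events. Starts and ends together numbered 30, 32 and 32 in saline and 29, 30 and 29 in morphine (p = 0.2, exact permutation test). Skipped exons numbered 2, 1 and 2 in saline and 1, 0 and 0 in morphine (p = 0.2, exact permutation test). A retained intron was listed in 1 saline and 2 morphine libraries, and alternative exon ends in morphine 1 only. None of these differences in number exceeded the spread between libraries. Per 1000 events of the library, starts and ends together differed by -0.063 and skipped exons by -0.0239 between the groups. Both had p = 0.1 (exact permutation test), the smallest possible, and skipped exons rest on at most 2 events per library. Retained introns (0.00514) and alternative exon ends (0.0107) did not reach that p on this ratio.

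Among the dopamine receptors, Drd1 had the most regular list and Drd2 one of the less regular ones. Drd1 encodes the D1 receptor of the direct pathway (chr13:54051183-54055705, minus strand), and its 3 events (2 starts and 1 end) were listed in all 6 libraries. The outer start is the first exon of the annotated coding transcript and began at 54055658 in every library. The inner start uses the splice donor of a non-coding transcript, at 54054729, whose annotated first exon is 52 bases long. All 3 saline libraries began this inner first exon at different positions, 54055490, 54055286 and 54055153, which gave lengths of 762, 558 and 425 bases. All 3 morphine libraries began it at 54055658, with a length of 930 bases each, and thus shared its outer start with the coding transcript. The exon was on average 582 ± 170 bases long in saline and 930 in morphine (SD of 0, n = 3 each), a difference of 348 bases with groups that did not overlap (exact permutation test, two-sided, p = 0.1, the smallest possible). This comparison was picked after the positions had been seen. Relative depths were 1, 1.07 and 1.37 in saline and 1.198, 1.59 and 1.29 in morphine. A link of the length of this exon with depth was not tested. Over all genes, 1.17% of the 12695 starts listed in all 6 libraries had outer starts that did not overlap between groups, and among the 10 genes this was 1 of 13. The whole stretch is upstream of the coding exon, since the first exon of the coding transcript holds 0 coding bases and the last exon holds all 1338. In morphine the inner first exon included the whole first exon of the coding transcript and the sequence between it and the inner donor.

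**Figure D3:**
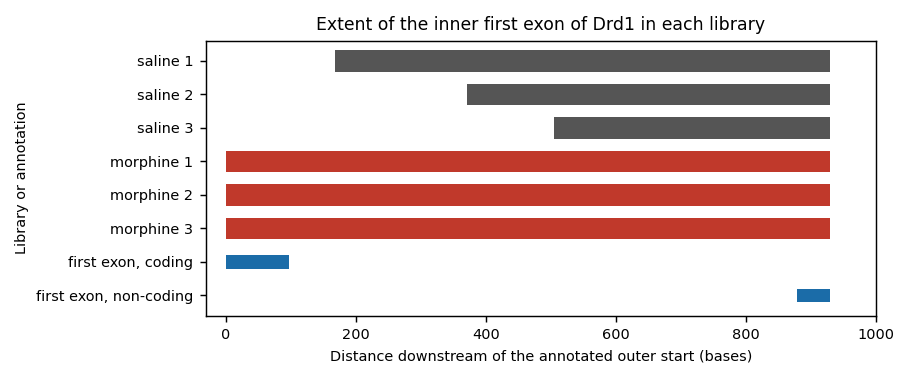
Bars show the extent of the inner first exon of Drd1 in each library, with the 2 annotated first exons (of the coding and the non-coding transcript) in blue, along the distance in bases downstream of the annotated outer start. The morphine bars all begin at 0 and have the same length of 930 bases, while the saline bars are 762, 558 and 425 bases long.

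The promoter window of the outer Drd1 start (250 bases before the RefSeq start, GRCm38.p6, minus strand) is shown. It was chosen because that start was listed at the base directly after it in all 6 libraries. The 203 bases before the first annotated exon are printed (chr13:54055706-54055908), and 47 bases that overlap an annotated exon were left out. Capitals would mark the motifs searched, of which the whole window held 0.
Drd1 promoter: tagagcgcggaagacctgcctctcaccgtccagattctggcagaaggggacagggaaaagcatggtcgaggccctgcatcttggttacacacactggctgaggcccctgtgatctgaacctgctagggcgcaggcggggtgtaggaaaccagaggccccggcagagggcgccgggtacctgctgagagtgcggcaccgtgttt
The motifs were the cAMP response element TGACGTCA, its core TGACG (which lies within it), the TATA box (TATAAA), the GC box (GGGCGG) and the CCAAT box (CCAAT), on both strands. RefSeq windows were at hand for 7 of the 10 genes, with 11 windows in all. The full element was in 0 of these 11 windows and in 1.55% of all 32851 windows of this length, and its core in 0 of 11 and in 17.8%. The GC box was in 6 of 11 (32.7% of all windows), the CCAAT box in 3 of 11 (33.8%) and the TATA box in 1 of 11, that of Rgs9 (12.4%). Among those with a GC box was the other Drd1 window (chr13:54054781-54055030), which is not printed. It lies directly before the annotated first exon of the inner start.

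Drd2 encodes the D2 receptor of the indirect pathway (chr9:49340627-49408177, plus strand) and had 4, 4 and 3 events in saline and 4, 2 and 2 in morphine (p = 0.4, exact permutation test). The cassette exon printed above was listed with both its included and skipped form in saline 1, 2 and 3 and in morphine 1. It was listed in neither form in morphine 2 and 3. The lists name an exon only where both forms were assembled, so they do not say which form was assembled in morphine 2 and 3. Of all single skipped exons listed in 4 libraries, 20% (135 of 676) were split in this way, with 3 saline libraries and 1 morphine library, and 134 were split the other way. The exon was listed at relative depths of 1, 1.07 and 1.37 (saline) and 1.198 (morphine 1), and was not listed at 1.59 and 1.29, so that the depths of libraries with and without it overlapped. The start at the annotated first exon was listed in all 6 libraries and began at 49340662 in 5 of them and at 49340358 in saline 1. An inner start at the donor 49399845, which is annotated inside longer transcripts, was listed in saline 1 and 2 and in morphine 1. Its first exon began at a different position in each of these libraries and was 3003, 2591 and 13831 bases long. The annotated last exon was listed in 5 libraries and ended at 49407214, short of the annotated gene end. Saline 1 listed instead an end at 49409033-49409404, beyond the annotated gene.

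Drd3 encodes the D3 receptor, which is known for its presence in the ventral striatum (chr16:43754026-43822932, plus strand). It had 3, 2 and 2 events in both groups, of which only the end was common to all 6 libraries. The start with the donor 43754269 was listed in 5 libraries. Saline 2, the exception, listed a start with the donor 43762511. Both are annotated first exons, with 62 coding bases in the former and 270 in the latter, and the coding sequences of their transcripts are 1434 and 1338 bases long. A further start was listed only in saline 1 and another only in morphine 1. The last exon ended at the annotated 43822932 in saline 2, morphine 2 and morphine 3 and further downstream in the other 3 libraries, up to 43826000 in saline 1. Neither the starts nor the end positions of Drd3 separated the groups.

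Adora2a, the A2a adenosine receptor of the indirect pathway (chr10:75316877-75334784, plus strand), had the most starts of the 10 genes. It had 4, 6 and 8 events in saline and 5, 5 and 5 in morphine (p = 0.7, exact permutation test). The relative depths were 1, 1.07 and 1.37 in saline and 1.198, 1.59 and 1.29 in morphine. A link of event number with depth was not tested. There were 7 starts and a single end, and the end, in the last exon that holds most of the coding bases, was listed in all 6 libraries. Starts at the donors 75317147, 75317646 and 75325036 were also listed in all 6. The first and the third of these are donors of annotated first exons. At 75325036 the outer start differed in every library. The exon there was 101 to 1499 bases long, where the annotated one has 179. The donor at 75317646 is not annotated, and it shared its outer start at 75316943 with the donor 75317147 in every library. It was the only one of the 6 unannotated starts of the 10 genes to be listed in every library, whereas 3.97% of the unannotated starts of all genes were. The remaining 4 starts were listed in 3, 3, 1 and 1 libraries and a skipped exon of 122 bases without annotation in saline 3 only. The 3 annotated first exons among the starts hold 0 coding bases each.

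Downstream of the receptors, Gnal and Adcy5 had simple lists. Gnal encodes the stimulatory G protein subunit of striatal neurons, on chromosome 18, and had the same 3 events in all 6 libraries, namely 2 starts and 1 end. The starts are annotated first exons with 346 and 145 coding bases, of transcripts whose coding sequences are 1344 and 1143 bases long. The first exons of both forms were thus assembled in every library of both groups. The last exon of Gnal overlaps Mppe1 on the other strand.

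Adcy5 encodes the main adenylyl cyclase of the striatum (chr16:35154877-35305738, plus strand), with a start and an end listed in 5 libraries. Saline 1, the library with the lowest relative depth, listed neither. It listed in their place a start (35303712) and an end (35300014) on the strand opposite to Adcy5. Between them lay a skipped exon of 125 bases (35302267-35302391), whose strand is not settled here. The events of Adcy5 were the same in the other 2 saline and all 3 morphine libraries. None of its events was in all 6 libraries.

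Pde1b and Pde10a encode phosphodiesterases that break down cAMP and cGMP, the first activated by calcium and calmodulin and the second highly expressed in striatal projection neurons. Pde1b (chr15:103503034-103530052, plus strand) had the same 3 events in all 6 libraries. Its 2 starts shared the outer start 103503298 in each library and differed in their donors, at 103503372 and 103503583, both annotated. The annotated first exon holds 0 coding bases in the former and 110 in the latter.

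Pde10a (chr17:8525372-8986648, plus strand) had 3, 2 and 3 events in saline and 2, 3 and 2 in morphine. Its end was the only event in all 6 libraries, and its 5 starts varied. A start with the donor 8802145 was listed in saline 1 and 3 and in morphine 2 and 3, always from 8801745. A far upstream start with the donor 8525815 was listed in saline 1 and 3 only. Saline 2 listed a start of 16 bases at 8525163-8525178 and morphine 1 one of 3773 bases at 8610068-8613840, neither of them annotated, and morphine 2 listed an annotated start at 8945569-8945716 in addition. The annotated first exon holds 67 coding bases at the donor 8802145 and 0 at the donor 8525815, with coding sequences of 2388 and 2148 bases. Saline 2 and morphine 1, which lacked both of these starts, were from different groups.

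The RefSeq window (250 bases, GRCm38.p6, plus strand) that ends just before the start at 8801745 is shown since the start was listed at the same base in 4 libraries. The 198 bases before the first annotated exon are printed (chr17:8801495-8801692), without the last 52. The capitals mark the GC box, here on the other strand.
Pde10a promoter: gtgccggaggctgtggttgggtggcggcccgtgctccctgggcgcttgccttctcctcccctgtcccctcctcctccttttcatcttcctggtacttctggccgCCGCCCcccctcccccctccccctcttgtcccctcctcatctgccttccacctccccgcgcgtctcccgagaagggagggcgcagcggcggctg
The whole window had a GC content of 72.8%, compared with a median of 52.4% over all windows. The 11 windows used, from 7 of the genes, ranged from 39.2% (Drd3) to 78% (Adcy5). Of these windows 8 were above the median and 3 below it, those of Drd3 and 2 of the 3 windows of Pde1b (44.8% and 50%).

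Ppp1r1b, which encodes DARPP-32 (chr11:98348404-98357796, plus strand), had 3, 4 and 3 events in each group. The starts at the donors 98349174 and 98350629, both annotated, and the end were listed in all 6 libraries. A further annotated start at 98350110 was listed in saline 2 and morphine 2 and shared its outer start with that at 98350629. The first exons hold 81 coding bases at 98349174, 34 at 98350629 and 0 at 98350110. The coding sequence is 582 bases long from the first of these and 474 from each of the others, so that first exons of the full-length and of the shorter form were assembled in every library. The last exon overlaps 1700003D09Rik on the other strand.

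Rgs9 (chr11:109225355-109298129, minus strand), the striatal regulator of G protein signalling, had 4, 4 and 4 events in saline and 5, 4 and 4 in morphine. Its start and the end of the long form (109225355-109225776) were listed in all 6 libraries. The short end printed above was listed in saline 2, saline 3 and morphine 3. In saline 1, morphine 1 and morphine 2 a retained intron was listed instead, at 109227604-109235900, directly downstream of the shared exon. Each library therefore listed exactly 1 of these 2 structures, in both groups. Over all genes, 1446 retained introns had an upstream exon that was also listed as a last exon. Of these, 20 had each of the 2 structures in 3 libraries, and in 6 of the 20, Rgs9 included, the libraries were opposite. An earlier annotated end (109256002-109258699, 232 codons in its transcript), was listed in 5 libraries. Morphine 1 lacked it and listed a pair of alternative exon ends there, of 30 bases (109250027-109250056) and 8673 bases (109250027-109258699). The groups overlapped in every one of these structures.

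**Figure D4:**
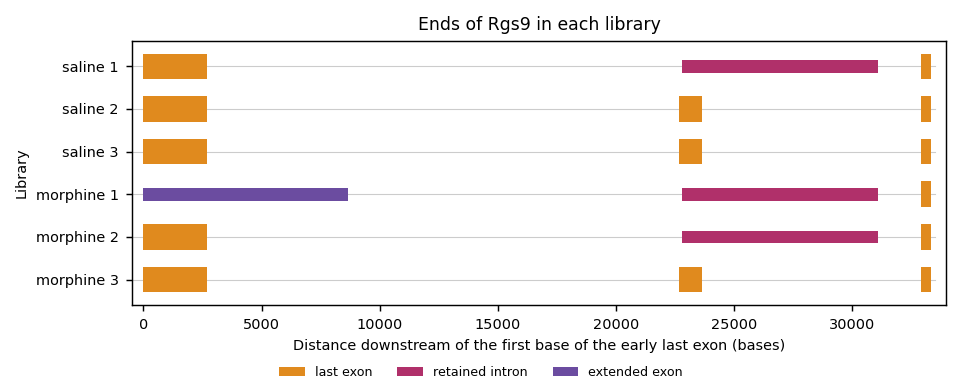
Last exons, the retained intron and the extended exon of Rgs9 are drawn per library along the distance in bases downstream of the first base of the early last exon. The long end at the right is in all 6 libraries, and each library has in the middle either the short end (saline 2, saline 3, morphine 3) or the retained intron (saline 1, morphine 1, morphine 2).

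Across the 10 genes, a larger share of events was in all 6 libraries than across all genes. Of their 50 events 21 (42%) were in all 6 libraries and 15 (30%) in a single library, compared with 20.5% and 50.5% of the events of all genes. Among starts and ends alone the shares in all 6 libraries were 47.7% (21 of 44) and 29.8%, and the shares in a single library 25% and 43.2%. The median gene had 5 events over all libraries both among the 10 genes and among all listed genes. The share in all 6 libraries was 36.7% for 68 other genes of the pathway. At annotated first exons it was 60% for the 10 genes and 53.2% for all genes. These shares are descriptions, as events of a gene share its reads and depth, and nothing particular to the 10 genes follows from them. Drd1, Gnal and Pde1b had all of their events in all 6 libraries, and Ppp1r1b 3 of 4. Fewer were in all 6 for Adora2a (4 of 9), Rgs9 (2 of 7), Drd2 (1 of 5), Drd3 (1 of 5), Pde10a (1 of 6) and Adcy5 (0 of 5).

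**Figure D5:**
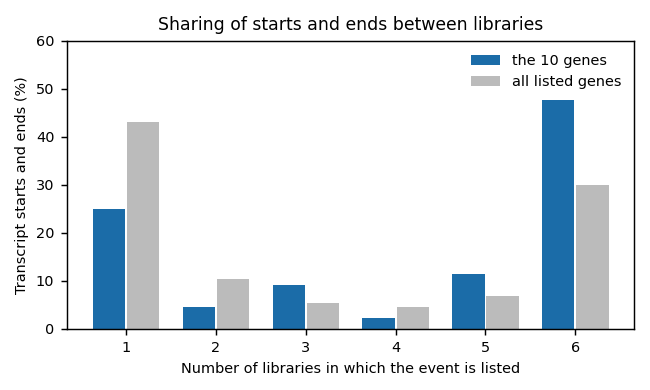
The vertical axis is the percent of transcript starts and ends, and the horizontal axis the number of libraries in which an event was listed, for the 10 genes (44 events, blue) and all listed genes (75931 events, grey). The bar for 6 libraries is at 47.7% for the 10 genes and 29.8% for all genes.

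The starts of the 10 genes lay at annotated first exons in 20 of 30 cases (66.7%, compared with 52.9% over all genes), and their ends at annotated last exons in 12 of 14 (85.7%, compared with 58.0%). Of these 20 annotated starts 12 were in all 6 libraries. Pairs of starts that shared an outer start made up 21.1% to 52.6% of the starts of the 10 genes in a library, compared with 10.3% to 12.03% over all genes. This was the case for Adora2a and Pde1b in all 6 libraries, for Ppp1r1b in saline 2 and morphine 2 and for Drd1 in the 3 morphine libraries.

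The overlap of event sets between libraries did not follow the groups. The Jaccard index (shared events over all events of 2 libraries) of the 10 genes averaged 0.691 over the 6 pairs within a group (0.571 to 0.818) and 0.697 over the 9 pairs between groups (0.610 to 0.853). For all events the averages were 0.471 and 0.470.

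The list of 68 other genes of the pathway runs from dopamine synthesis to kinase A targets. Of these genes 62 were listed in all 6 libraries, 3 in some (Slc6a3, Drd4 and Chrm4) and 1, Drd5, in none. The other 2 were not judged, since Gpr52 had no match in the annotation by its symbol and the lists carry another identifier at the position of Pde2a. Drd5 has a single exon, and the lists held 10.1% of single-exon protein-coding genes (134 of 1331) but 76.5% of the others. They had 452 events, of which 3 were in all saline libraries and no morphine library and 0 were the reverse (0.664% together, compared with 0.658% over all genes). The 3 events were a skipped exon of Gnao1 (chr8:93966868-93967083), a start of Pde4d (chr13:109686156-109686220) and an end of Akap5 (chr12:76327566-76330054). Gnao1 encodes an inhibitory G protein subunit, Pde4d a cAMP phosphodiesterase and Akap5 an anchor of kinase A. Akap5 had 3 events in every library of both groups. Rgs7, a relative of Rgs9 named here after its values were seen, was the only one of the 68 genes whose groups did not overlap, with 4, 4 and 4 events in saline and 8, 6 and 8 in morphine. This is 1.47% of the 68 genes, compared with 2.77% of all listed genes, and so not above the background.

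The tissue label was compared with marker genes by their presence in the lists. All 12 markers of striatal projection neurons, 5 of them among the 10 genes, were listed in all 6 libraries. Markers of other cells were listed in all 6 libraries as well, with 4 of 4 for astrocytes, oligodendrocytes, microglia and GABA interneurons each, 3 of 3 for septal neurons and ependymal cells, 4 of 5 for cortical projection neurons and 2 of 3 for endothelial cells, cholinergic interneurons and midbrain dopamine neurons. Slc18a3 and Cldn5, both single-exon genes, were listed in no library. Presence in a list says nothing on the amount of such cells, and their part in the results was not tested.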

How the data were processed

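Strand-specific libraries of NAc RNA (3 per group, by the treatment label) were mapped with HISAT2 and assembled with StringTie by the authors. The per-library event lists, in ASprofile layout, carry a deposited score column headed FPKM, whose values were whole numbers from -25 to 0, and it was not used as a level. The genome build was not given in the sources used here. Coordinates were matched to GENCODE M21 (GRCm38). The deposited table of differential lncRNA transcripts holds the authors' raw read counts and the authors' FPKM, from which only relative depth was recovered (values with at least 10 counts). Its fold changes and p-values were not used. Absolute depth was not analysed here.

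The 20 event types were merged into 12 classes, with included and skipped entries of a pair joined. The splice-side coordinate identified a start or an end, and the exon or intron any other event. Group means per library were tested by exact permutation (two-sided, 20 assignments) in Python 3.11.15 (pandas 2.3.3, numpy 2.4.6, figures with matplotlib 3.10.9). The code was tested on simulated data. Replicate numbers follow accession order and pair nothing. The 10 genes, the pathway genes and the markers were chosen with earlier results of these data known. All 10 genes are named, and other pathway genes where an event was group-specific. Promoter sequences are from RefSeq GRCm38.p6 and exon sequences from GENCODE M21 transcripts.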

Additional observations from a re-analysis of the deposited data

How the results depend on the processing

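Of 109 alternative values, 101 kept their direction (or a count within 1.5 times), 8 moved and 0 reversed. The lowest p of any alternative was 0.1, and as no design here can reach p under 0.05, the side of the threshold was fixed in advance and shows no stability. Without events of a single library, the differences in transcript ends (last exons alone) and in alternative exon ends between groups became 0, as did that in alternative exon ends without morphine 1 (range with 1 library left out 0 to 1). Scaled to relative depth, as if events rose in proportion to it, the difference in events was -8.05 instead of -2.33. With all coordinates and the pattern as identity, 1 event of the 10 genes was group-specific instead of 0, the inner first exon of Drd1 in morphine. The number of their events in all 6 libraries was then 15 instead of 21. With 1 library left out, the count of group-specific events ranged from 0 to 1 (the far upstream Pde10a start without saline 2, the Drd2 cassette exon without morphine 1), and the count of genes whose groups do not overlap from 0 to 1 (Adora2a without saline 1, Drd2 without morphine 1). The settings with 1 library left out use fewer libraries. Shares over all genes are not given here for these settings or for the identity by all coordinates. These counts therefore cannot be set against a background. Leaving out each library, an alternative chosen after seeing the data, put the Drd1 length difference between 270 and 438.5 bases. No paired analysis was possible because the labels give no replicate numbers. Which events are listed depends on depth and assembly, so an event that is not listed may be present in the tissue.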

Other observations

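The score of the Adora2a end was -3, -5 and -6 in saline libraries 1 to 3 and -4 in each morphine library, and the number of listed Adora2a starts was 3, 5 and 6 in saline and 4 in each morphine library. Gnal likewise had 2 starts and an end score of -2 in every library. The match was not general, as Drd1 had 2 starts and an end score of 0 in every library. Rgs9 had 1 start, with a score of -3, in every library. Over the 10 genes and 6 libraries, the scores of starts and of ends had equal sums in 51 of 60 gene and library pairs, with sums below 0 in 44 of these. The meaning of the score is not given in the sources used here.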
